A study of Rattus norvegicus with 12 samples.

Results

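Osteopontin (Spp1), Gpnmb and galectin-3 (Lgals3) are products of activated macrophages, and their transcripts were followed in rat hearts 2 and 7 days after a temporary closure of a coronary artery. The genes were taken as the probe sets whose only gene symbol in the platform annotation is Spp1, Gpnmb or Lgals3, which gave 3 of 15866 non-control probe sets, with 1 probe set for each gene. They were chosen by their measured signals across all 4 groups, high at 2 d and unlike in their decline by 7 d, so that their levels and every change between groups are given as a description, without a test. All 3 passed the filter on dim probe sets, which left 10527 probe sets for testing.

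Total RNA of heart tissue was hybridised to 12 arrays, with 1 array per rat and 3 rats in each of 4 groups. The 7 d IR and 2 d IR rats underwent ischaemia and reperfusion: a coronary artery that feeds the front wall of the left ventricle, the left anterior descending artery (LAD), was held closed for 30 min and then reopened for 7 or 2 days. In 7 d sham and 2 d sham rats it was not closed, and the hearts were taken on the same days. The labels give no strain, sex or age. The text of the study design lists a 7 d sham group again where a 2 d one would stand, and groups follow the title and description of each sample. A single sample's label says that the ventricle was taken, and no label says how much of each sample came from the area that the artery supplies. Nothing in the labels describes pooling.

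Osteopontin is a secreted, heavily phosphorylated matrix protein that macrophages, fibroblasts and other cells release after injury, and that binds integrins through its RGD sequence and also binds CD44. Thrombin and matrix metalloproteinases cut it and expose further integrin-binding sequence, and transglutaminase crosslinks it. Gpnmb is a transmembrane glycoprotein of lysosomes, phagosomes and the cell surface, whose outer part the protease ADAM10 sheds; it is driven by the MiT/TFE transcription factors in melanocytes, osteoclasts and macrophages under lysosomal stress. Galectin-3 binds beta-galactosides on glycoproteins, acts inside and outside the cell, gathers on damaged lysosomes, and is used as a marker of macrophage activation and cardiac fibrosis.

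The RefSeq gene table (rat assembly GRCr8) places Spp1 (gene 25353) at chr14:5613569-5620695, Gpnmb (gene 113955) at chr4:79341128-79362366 and Lgals3 (gene 83781) at chr15:23099795-23111731. All 3 are annotated as protein-coding, and they lie on different chromosomes.

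The promoters of Spp1 and Gpnmb are shown because these genes moved together among arrays of the same group, as described below. That relation was not shown to be particular to the pair. Each is the 250 bases before the annotated start, 5′ to 3′ along the gene, from RefSeq (GRCr8): chr14:5619805-5620054 on the minus strand for Spp1 and chr4:79340878-79341127 on the plus strand for Gpnmb. The Spp1 window lies within the span given above for the gene, before the start that the promoter table uses. Capitals mark matches to 3 motifs, searched on both strands and chosen with the sequences in view: the AP-1 motif TGANTCA, the RUNX motif TGTGGT or TGCGGT, and the M-box of MiT/TFE factors, TCATGTGA or TCACGTGA.
Spp1: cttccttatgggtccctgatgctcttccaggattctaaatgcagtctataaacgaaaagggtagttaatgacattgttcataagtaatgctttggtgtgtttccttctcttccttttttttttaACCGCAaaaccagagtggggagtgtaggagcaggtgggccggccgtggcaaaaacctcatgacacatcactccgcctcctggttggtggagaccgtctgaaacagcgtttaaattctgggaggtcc
Gpnmb: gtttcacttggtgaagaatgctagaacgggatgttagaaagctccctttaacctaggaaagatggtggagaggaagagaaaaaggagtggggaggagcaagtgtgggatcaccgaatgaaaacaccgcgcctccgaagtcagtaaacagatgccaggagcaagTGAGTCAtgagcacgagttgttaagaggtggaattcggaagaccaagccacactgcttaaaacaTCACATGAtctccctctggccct
The Spp1 window held a reversed RUNX motif (ACCGCA) 126 to 121 bases before the start, and neither of the other motifs. The Gpnmb window held an AP-1 motif (TGAGTCA) 87 to 81 bases before the start and a reversed M-box (TCACATGA) 23 to 16 bases before it, and no RUNX motif. Among 33469 RefSeq promoter windows of the same length, 19.0% held the RUNX motif, 6.34% the AP-1 motif and 1.62% the M-box. The windows of Spp1 and Gpnmb had none of these motifs in common. A match in letters does not show that a factor binds there. Lgals3 had no entry among the promoters.

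Single arrays of 2 groups lay away from the rest of their group. The first principal component, with 39.0% of the variance, placed 7 d sham replicate 82 at -23.6, against -1.1 for both other 7 d sham arrays, and 2 d IR replicate 69 at 18.3, against -4.1 and 0.2 for the other 2 d IR arrays. The tissue label held: all 11 cardiomyocyte markers, such as the myosin heavy chain Myh6, were tested, with a summed signal of 360894 to 575889 on the 12 arrays. The log2 ratio of 3′ to 5′ probe sets of beta-actin, a measure of RNA integrity, was 0.11 to 0.23 in 7 d IR arrays and 0.38 to 0.82 in 7 d sham arrays, while those of the other control transcripts (Gapdh and Hk) overlapped. The part of this gap in any 7 d result was not tested. The 7 d IR rats carry the numbers 44, 47 and 48 and the others 69 to 82, and no batch is labelled.

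Spp1 had its highest signals in 2 d IR arrays and its widest log2 spread in 7 d IR arrays (SD 1.48, against 0.44 in 7 d sham arrays). In 7 d IR arrays its signal, on the linear MAS5 scale, was 2250, 1458 and 11327 (replicates 44, 47 and 48), against 2647, 1589 and 1416 in 7 d sham arrays (replicates 80, 81 and 82). Replicate 48 alone lay above all 7 d sham arrays, and the other 7 d IR arrays lay within the sham range, so that the groups overlapped. At 2 d, IR arrays had signals of 42426, 17340 and 31423 (replicates 69, 73 and 76), against 5748, 10515 and 9907 in 2 d sham arrays (replicates 71, 72 and 74). Every 2 d IR array lay above every 2 d sham array. On the log2(signal + 195.4) scale, IR minus sham was 0.84 ± 0.53 at 7 d and 1.73 ± 0.53 at 2 d (limma SE, n = 3 each), or 1.79-fold and 3.32-fold. Without replicate 48 the 7 d difference was -0.0024. The 7 d IR arrays were lower than the 2 d IR arrays by 7.97-fold (log2 change -3.0 ± 0.53), without overlap. The group means ran from 30396 ± 12575 in 2 d IR to 8723 ± 2595 in 2 d sham, 5012 ± 5483 in 7 d IR and 1884 ± 667 in 7 d sham (SD, n = 3), and in that order only the first pair of neighbours did not overlap.

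Gpnmb kept an IR signal above the sham signal of the same day at 7 d. It was 8402, 6002 and 13751 in 7 d IR arrays (replicates 44, 47 and 48), against 4199, 2928 and 1536 in 7 d sham arrays (replicates 80, 81 and 82). The lowest 7 d IR array lay above the highest 7 d sham array. For 2 d IR arrays the values were 29090, 12075 and 21058 (replicates 69, 73 and 76), against 4067, 4934 and 5346 in 2 d sham arrays (replicates 71, 72 and 74). These groups did not overlap either. IR minus sham was 1.66 ± 0.35 at 7 d and 1.99 ± 0.35 at 2 d on the log2 scale, or 3.15-fold and 3.98-fold. The 7 d IR arrays were 2.17-fold lower than the 2 d IR arrays (-1.12 ± 0.35), and here the groups overlapped, because 7 d IR replicate 48 lay above 2 d IR replicate 73. The order of the means was 20741 ± 8512 in 2 d IR, 9385 ± 3967 in 7 d IR, 4782 ± 653 in 2 d sham and 2887 ± 1332 in 7 d sham (SD, n = 3); 2 d IR overlapped 7 d IR, and 2 d sham overlapped 7 d sham.

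Lgals3 had the narrowest spread of the 3 genes among the 7 d IR arrays. Its signal was 13326, 14090 and 11894 in 7 d IR arrays (replicates 44, 47 and 48), against 10643, 10667 and 4976 in 7 d sham arrays (replicates 80, 81 and 82). The groups did not overlap, but the gap to the upper 7 d sham arrays was small and replicate 82 was far lower. In 2 d IR arrays the signal was 30713, 17667 and 23440 (replicates 69, 73 and 76), against 6243, 7769 and 8004 in 2 d sham arrays (replicates 71, 72 and 74). Every 2 d IR array was above every 2 d sham array. IR minus sham was 0.65 ± 0.25 at 7 d and 1.65 ± 0.25 at 2 d on the log2 scale, or 1.57-fold and 3.14-fold, and the 7 d value was 0.29 without 7 d sham replicate 82. The 7 d IR arrays were 1.77-fold lower than the 2 d IR arrays (-0.83 ± 0.25), without overlap. The order of the means was 23940 ± 6538 in 2 d IR, 13104 ± 1115 in 7 d IR, 8762 ± 3279 in 7 d sham and 7338 ± 956 in 2 d sham (SD, n = 3), and of the neighbours only the sham groups overlapped.

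**Figure D1:**
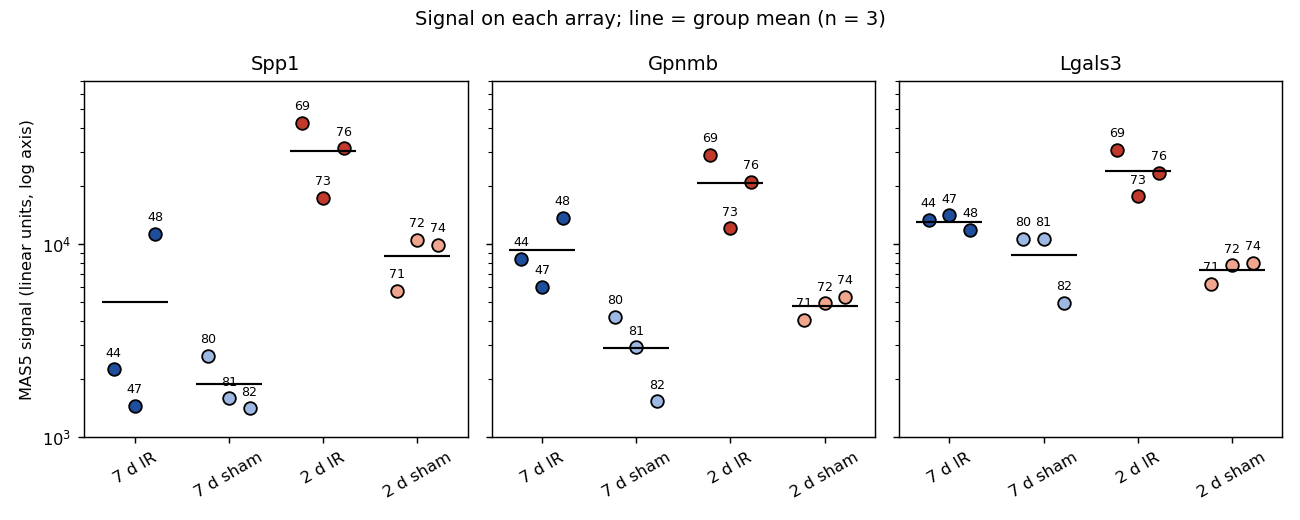
Signal of Spp1, Gpnmb and Lgals3 on each of the 12 arrays (y axis, linear MAS5 units on a log axis) by group (x axis), with replicate numbers and a line at the group mean (n = 3). In the Spp1 panel 7 d IR replicate 48 lies at 11327, far above the 7 d sham arrays, while the other 7 d IR arrays lie among them.

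Set side by side, the log2 change between IR and sham lay between 0.65 and 1.66 for the 3 genes at 7 d and between 1.65 and 1.99 at 2 d. The groups did not overlap for 2 of 3 genes in the 7 d comparison and for 3 of 3 in the 2 d comparison, where 32.4% and 26.4% of all tested probe sets did not overlap; since these contrasts chose the genes, nothing is read from the counts. Between 7 d IR and 2 d IR, 2 of 3 did not overlap, against 20.5% of all. Against the 2 d sham group, 7 d IR arrays had a log2 change of -1.26 for Spp1, 0.87 for Gpnmb and 0.82 for Lgals3. Against the 7 d sham group, 2 d IR arrays had a log2 change of 3.83 for Spp1, 2.78 for Gpnmb and 1.47 for Lgals3. The direction of the 7 d difference thus turned with the sham group for Spp1 and not for Gpnmb or Lgals3. RNA came from tissue, so that fewer cells of a type and less RNA per cell cannot be told apart.

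The sham groups were set against each other as well, again as a description. Spp1 was lower in 7 d sham than in 2 d sham on every array, with means of 1884 and 8723, a 4.29-fold difference (log2 change -2.10 ± 0.53), and the change ran from -2.37 to -1.94 when single arrays were left out. Gpnmb had a log2 change of -0.78 ± 0.35 in 7 d sham against 2 d sham, with overlap; it was -0.42 without 7 d sham replicate 82 and -1.09 without 7 d sham replicate 80. Lgals3 had a change of 0.18 ± 0.25, also with overlap; it was -0.00097 without 7 d sham replicate 81 and 0.53 without 7 d sham replicate 82. Over all probe sets 8 of 10527, or 0.0760%, passed between the sham groups (992 at an unadjusted p under 0.05), and 14.3% did not overlap, as was the case for 1 of the 3 genes, from which nothing is read.

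Within single arrays the levels of the genes were also set against each other, as a description, since their unlike decline by 7 d chose them. Relative to the 2 d sham mean, the log2 level of Spp1 minus that of Gpnmb was -2.62, -2.71 and -1.08 in 7 d IR arrays (replicates 44, 47 and 48), and -1.43, -1.61 and -0.91 in 7 d sham arrays (replicates 80, 81 and 82). In 2 d IR arrays (replicates 69, 73 and 76) it was -0.26, -0.29 and -0.23, and in 2 d sham arrays (replicates 71, 72 and 74) -0.32, 0.26 and 0.06. All 7 d arrays lay below all 2 d arrays, and the 2 d IR arrays lay close together although their Spp1 signals differed widely. Spp1 minus Lgals3 was -2.67, -3.32 and -0.27 in 7 d IR arrays and -2.14, -2.81 and -1.89 in 7 d sham arrays. It was 0.26, -0.23 and 0.22 in 2 d IR arrays and -0.32, 0.22 and 0.10 in 2 d sham arrays. Here 7 d IR replicate 48 lay above 2 d sham replicate 71, and the other 7 d arrays lay below all 2 d arrays. For Gpnmb minus Lgals3 the values were -0.05, -0.61 and 0.80 in 7 d IR arrays, -0.70, -1.20 and -0.98 in 7 d sham arrays, 0.52, 0.06 and 0.45 in 2 d IR arrays and 0.00, -0.04 and 0.03 in 2 d sham arrays. On this measure the 7 d sham arrays were the lowest and the 7 d IR arrays spread across the other groups.

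**Figure D2:**
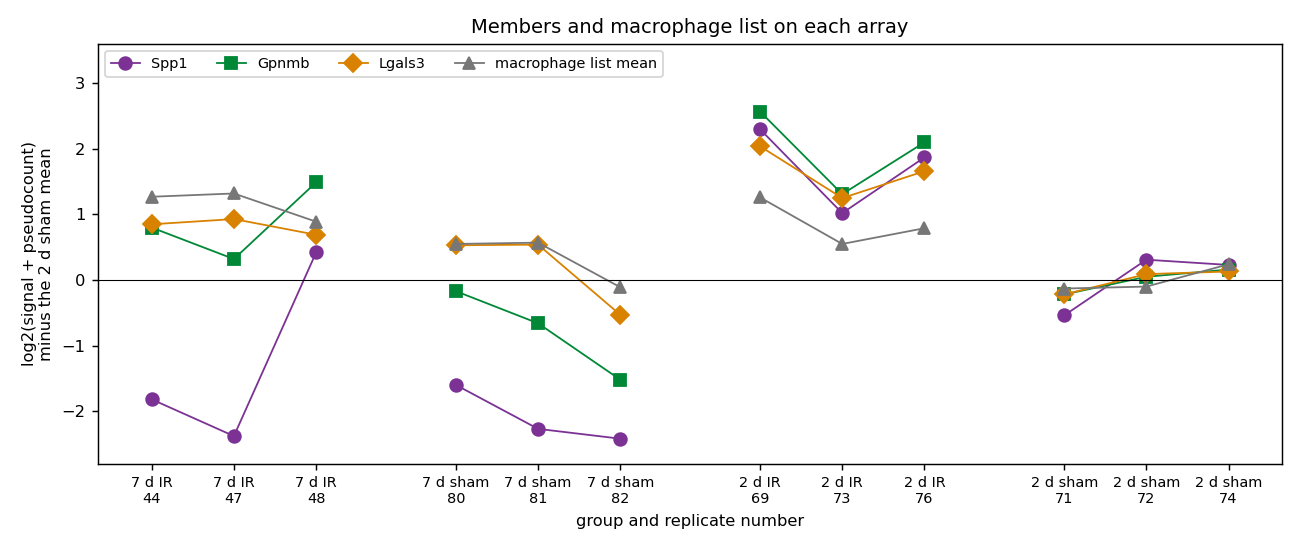
Log2(signal + 195.4) of Spp1, Gpnmb, Lgals3 and the mean of 17 macrophage and monocyte markers on each array, minus the 2 d sham mean of each (y axis, log2 units), by group and replicate number (x axis). In 7 d IR replicate 48, Spp1 and Gpnmb are at their highest for the group and Lgals3 and the macrophage mean at their lowest.

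The relation between the genes from array to array was taken from deviations of each array from its group mean, from which the group differences are removed. The genes and the tests were chosen with earlier results of these data known. The adjusted p-values of the 6 relations do not cover that choice. Spp1 and Gpnmb deviated together: Pearson's r was 0.83 and Spearman's rho 0.86 over 12 arrays, each with an exact permutation p of 0.00154 (arrays permuted within groups, two-sided) and an adjusted p of 0.00463 over the 6 relations computed, and the deviations had the same sign on 11 of 12 arrays. Without the arrays farthest from the median of Spp1 (7 d IR replicates 48 and 47), r was again 0.83. The order of the arrays was the same for both genes in 7 d IR (48, 44, 47), 7 d sham (80, 81, 82) and 2 d IR (69, 76, 73). How many other genes deviate with Spp1 or Gpnmb to this degree is not given here. The relation is therefore not shown to be particular to the pair.

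Lgals3 deviated together with the macrophage list. This list holds 22 markers of macrophages and monocytes, of which 17 were tested, and does not include Spp1, Gpnmb or Lgals3. Lgals3 and the mean of the 17 markers had an r of 0.92 and a rho of 0.95 (exact permutation p = 0.000772, the smallest these permutations can give, adjusted p = 0.00463), with the same sign on 10 of 12 arrays and the same order of arrays in all 4 groups. Without the 2 arrays farthest from the median of Lgals3 (7 d sham replicate 82 and 2 d IR replicate 73), r was 0.85. Without 7 d sham replicate 82 alone the relation did not pass (exact permutation, adjusted p = 0.0625). How many other genes deviate with the list to this degree is not given here, so the relation is not shown to be particular to Lgals3. For Spp1 and the same list r was 0.02 and rho 0.28 (exact permutation p = 0.952 and 0.412, the same after adjustment), and r was 0.60 without 7 d IR replicates 48 and 47. For Gpnmb and the list r was 0.52 and rho 0.55 (exact permutation p = 0.208 and 0.137, adjusted 0.312 and 0.205), and r was 0.09 without 7 d sham replicate 82 and 2 d IR replicate 73. Spp1 and Lgals3 had an r of 0.25 and a rho of 0.39 (exact permutation p = 0.296 and 0.225, adjusted 0.356 and 0.269), with r at 0.68 without 7 d IR replicates 48 and 47. Gpnmb and Lgals3 had an r of 0.70 and a rho of 0.62 (exact permutation p = 0.0694 and 0.0965, adjusted 0.139 and 0.193), with r at 0.36 without 7 d sham replicate 82 and 2 d IR replicate 73. These 4 relations did not pass the test, and the difference between one correlation and another was not tested.

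Without 2 d IR replicate 69 and 7 d sham replicate 82 together, r was 0.93 for Spp1 and Gpnmb and 0.76 for Lgals3 and the macrophage list over the 10 arrays left. In the same setting Spp1 and Lgals3 had almost no correlation. With the macrophage list r was negative for Spp1 and for Gpnmb. The values are given in the last section. In 7 d IR the orders of the genes were opposite: Spp1 and Gpnmb were highest on replicate 48 and lowest on replicate 47, and Lgals3 and the macrophage list the reverse. Relative to the 2 d sham mean, the macrophage mean was 1.27, 1.32 and 0.89 in 7 d IR arrays 44, 47 and 48, against 0.55, 0.57 and -0.11 in 7 d sham arrays 80, 81 and 82. It was 1.26, 0.55 and 0.79 in 2 d IR arrays 69, 73 and 76, against -0.13, -0.10 and 0.24 in 2 d sham arrays 71, 72 and 74. Between 7 d IR and 2 d IR, 3 of the 17 macrophage markers passed, all of them higher in 7 d IR, where 3.45% of all probe sets passed in either direction, and the list's median change was 0.19. They were the complement genes C1qa (log2 change 1.62 ± 0.22, limma adjusted p = 0.00144), C1qb (1.26 ± 0.26, adjusted p = 0.0138) and C1qc (1.03 ± 0.25, adjusted p = 0.0331), and 1 passed without 7 d IR replicate 47. Their mean signals were also higher in 7 d sham than in 2 d sham arrays. They were 4646.1 and 2177.8 for C1qa, 3148.4 and 1672.5 for C1qb, and 3907.5 and 2625.8 for C1qc. Between 7 d sham and 2 d sham 0 of the 17 markers passed. At an unadjusted p under 0.05 5 were higher in 7 d sham, against 9.42% of all probe sets in either direction. The list's median change was 0.37.

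**Figure D3:**
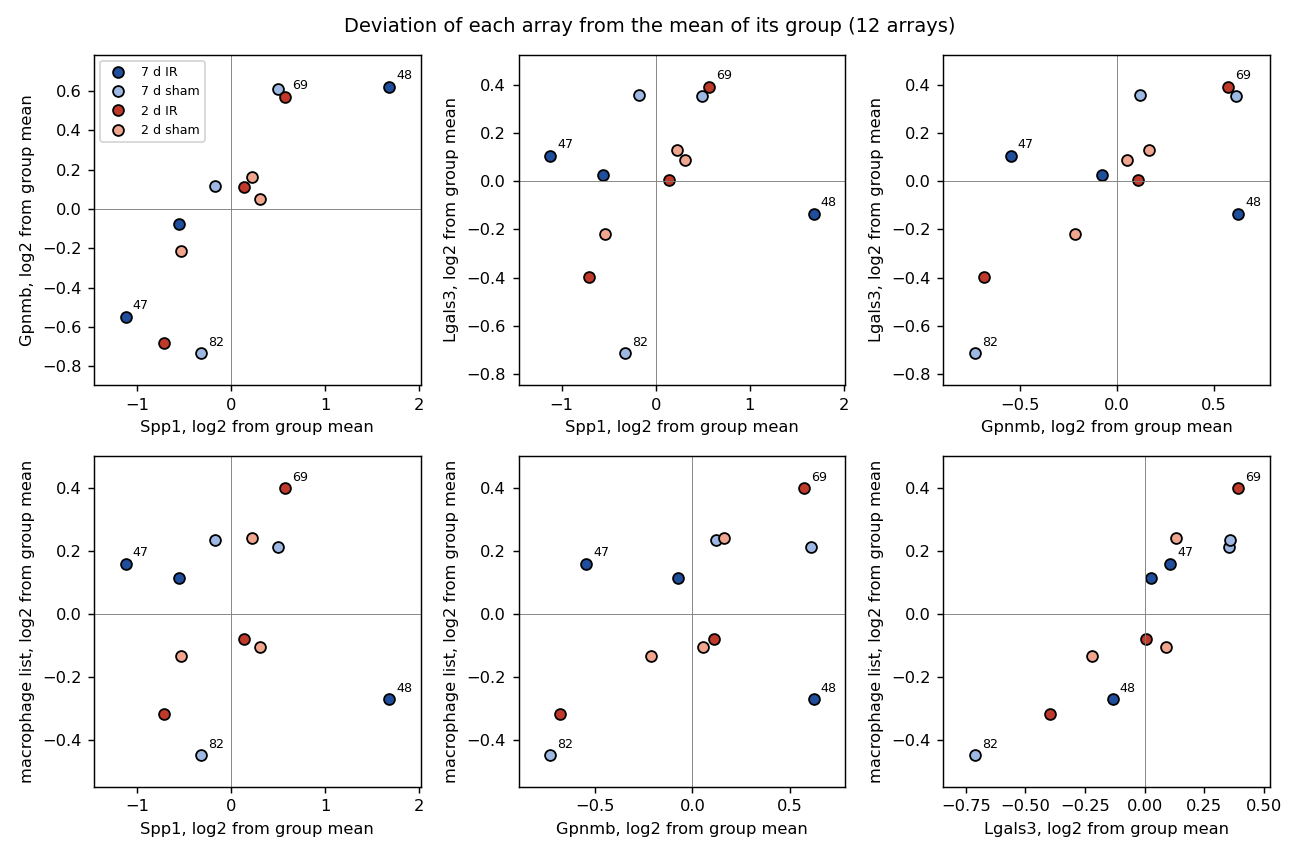
Deviation of each of the 12 arrays from the mean of its group on the log2 scale, for each pair of the 3 genes (top) and for each gene against the mean of 17 macrophage markers (bottom); colours give the group and numbers mark replicates 47, 48, 69 and 82. The points lie along a line for Spp1 and Gpnmb (r = 0.83) and for Lgals3 and the macrophage markers (r = 0.92), and replicate 48 lies off it in the plots of Spp1 against Lgals3 and the macrophage markers.

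The genes with the pattern most like each of the 3 were taken as the 5 other named genes with the highest Pearson's r of log2 levels over the 12 arrays, which here holds the group differences as well. For Gpnmb they were Hmox1 (haem oxygenase 1, r = 0.952), Smpdl3a (a sphingomyelinase-like phosphodiesterase, 0.928), Akr1b8 (an aldo-keto reductase, 0.924), Cd300c2 (a myeloid cell receptor of the CD300 family, 0.914) and Rnh1 (the ribonuclease inhibitor, 0.912). Lgals3 shared Cd300c2 (0.978) and Hmox1 (0.948) with Gpnmb, beside Psph (phosphoserine phosphatase, 0.982), Sf3a3 (a splicing factor subunit, 0.958) and Emp3 (a membrane protein, 0.955). For Spp1 the list was Cd59b (a complement inhibitor, 0.916), Mybpc2 (a myosin-binding protein, 0.887), Marchf5 (a mitochondrial ubiquitin ligase, 0.879), Cct5 (a chaperonin subunit, 0.871) and Psmc3ip (a recombination factor, 0.856). It held none of the genes most like Gpnmb or Lgals3. Gpnmb came 14th for Spp1 (0.814), and Lgals3 came 254th (0.594). Lgals3 came 11th for Gpnmb (0.890). In the other direction Spp1 came 88th for Gpnmb and 991st for Lgals3, and Gpnmb came 41st for Lgals3, among 7720 tested genes. Without 2 d IR replicate 69 and 7 d sham replicate 82, r was 0.694 for Spp1 and Gpnmb. It was then 0.278 for Spp1 and Lgals3 and 0.764 for Gpnmb and Lgals3. These correlations are descriptions over arrays that share groups.

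The changes of these genes between IR and sham are likewise given without a test, because a gene chosen for a level like that of Gpnmb or Lgals3 over all 12 arrays is also chosen for their differences between groups. Hmox1 had a log2 change of 0.92 ± 0.31 in 7 d IR and 2.01 ± 0.31 in 2 d IR, each against sham, and Cd300c2 one of 1.02 ± 0.32 and 1.85 ± 0.32. The changes of Smpdl3a were 0.68 ± 0.18 in 7 d IR and 0.92 ± 0.18 in 2 d IR, and those of Rnh1 were 0.85 ± 0.19 and 0.86 ± 0.19. Akr1b8 changed by 0.65 ± 0.29 in 7 d IR and 1.29 ± 0.29 in 2 d IR, Emp3 by 0.57 ± 0.19 and 1.08 ± 0.19, Psph by 0.32 ± 0.20 and 0.82 ± 0.20, and Sf3a3 by 0.17 ± 0.12 and 0.42 ± 0.12. All 8 changes were positive on both days and ranged widely in size. Among the genes most like Spp1, Mybpc2 changed by 0.11 ± 0.18 in 7 d IR and 0.52 ± 0.18 in 2 d IR and Cd59b by -0.04 ± 0.11 and 0.10 ± 0.11, while between 7 d IR and 2 d IR the changes were -1.0 ± 0.18 for Mybpc2 and -0.43 ± 0.11 for Cd59b. A correlation compares shapes and not sizes, and the change of Spp1 between 7 d IR and 2 d IR (-3.0) was larger than that of either gene.

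**Figure D4:**
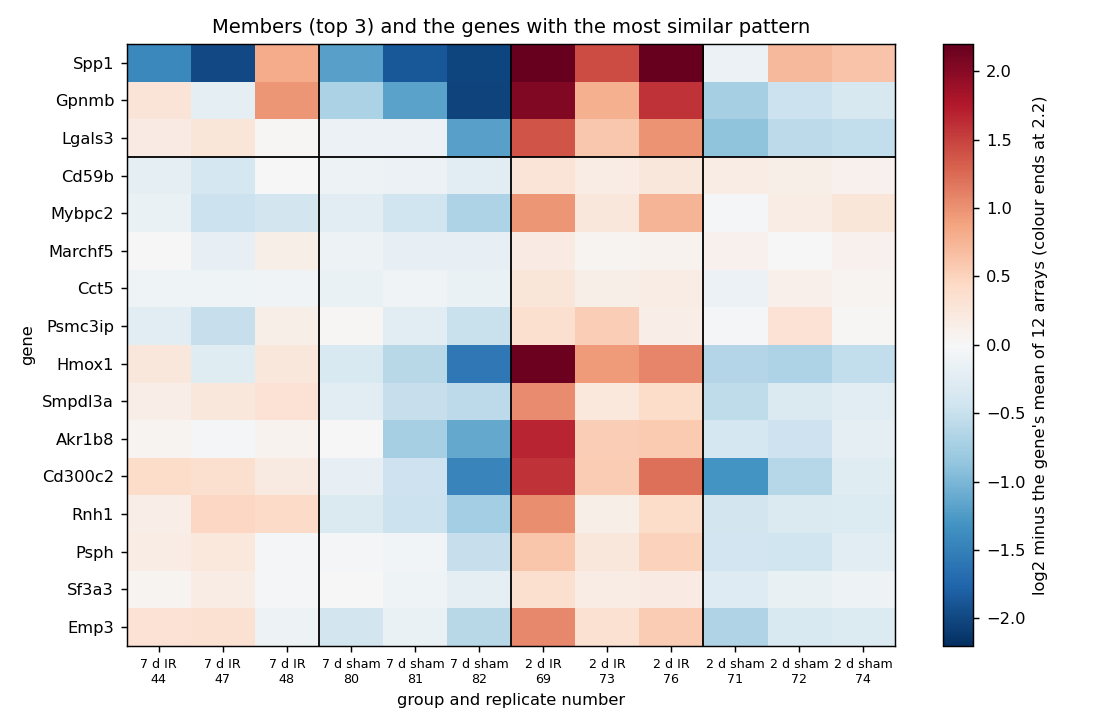
Log2 level minus the gene's own mean over the 12 arrays (colour) for Spp1, Gpnmb, Lgals3 and the genes with the most similar patterns (down the page), by group and replicate (across). The strong colours of Spp1 are not matched by Cd59b, Marchf5 or Cct5, while Hmox1 and Cd300c2 run close to Gpnmb and Lgals3.

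Genes around osteopontin were read from fixed lists, against a background of 12.1% of all probe sets called between 7 d IR and 7 d sham (6.22% higher and 5.85% lower) and 2.47% between 2 d IR and 2 d sham (1.88% higher and 0.589% lower), at a limma adjusted p under 0.05. At an unadjusted p under 0.05 the shares, in either direction, were 28.0% at 7 d and 21.5% at 2 d. Counts of every list below stand against these shares. Of 10 receptor genes 3 were tested, and Cd44, a hyaluronan and osteopontin receptor, was the 1 that rose in 7 d IR, by 0.85 ± 0.21 (adjusted p = 0.0222). At 2 d, 0 of 3 passed (1 at an unadjusted p under 0.05), and Cd44 changed by 0.76 ± 0.21 (limma adjusted p = 0.0699). The call of Cd44 in 7 d IR was lost without 7 d IR replicate 44 or 47 or without 7 d sham replicate 82. A second Cd44 probe set was called at the other day, with changes of 0.56 in 7 d IR (limma adjusted p = 0.121) and 1.16 in 2 d IR (adjusted p = 0.0235). The list's median change was 0.39 in 7 d IR and 0.17 in 2 d IR, against 0.007 and 0.003 over all tested probe sets.

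Of 11 genes listed for the processing and crosslinking of osteopontin 7 were tested. Among them 1 rose in 7 d IR and 2 in 2 d IR, where 6.22% and 1.88% of all probe sets rose. Mmp2, a gelatinase, rose by 1.23 ± 0.22 in 7 d IR (limma adjusted p = 0.00726), but its second probe set changed by -0.09 (adjusted p = 0.831). Mmp12, the macrophage elastase, averaged 1906 in 2 d IR arrays and 309 in 2 d sham arrays, and rose by 1.88 ± 0.44 (limma adjusted p = 0.0420). Plau, the urokinase plasminogen activator, rose by 1.05 ± 0.23 in 2 d IR (limma adjusted p = 0.0308), and its second probe set by 0.40 without a call (adjusted p = 0.295). The Mmp2 call held without each single array, while those of Mmp12 and Plau were lost without 2 d IR replicate 69 or any 2 d sham array, and that of Mmp12 also without 2 d IR replicate 76. The list's medians were 0.25 in 7 d IR and 0.05 in 2 d IR. The other phosphoproteins of the osteopontin family (Ibsp, Dmp1, Dspp and Mepe) gave 0 of 4 genes above the filter.

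The other galectins did not pass the test. Of the 8 listed, 4 were tested, and 0 passed in either comparison (2 higher at an unadjusted p under 0.05 in 7 d IR and 1 in 2 d IR). Lgals1, an abundant galectin of stromal and muscle cells, changed by 0.34 ± 0.12 in 7 d IR (limma adjusted p = 0.0676). Of 10 ligands and partners of galectin-3, 7 were tested. Lgals3bp, a secreted glycoprotein that galectin-3 binds, was the 1 that rose in 7 d IR, with means of 3230 in 7 d IR arrays and 1741 in 7 d sham arrays and a change of 0.82 ± 0.16 (limma adjusted p = 0.00913), and 0 passed in 2 d IR (3 higher and 1 lower at an unadjusted p under 0.05). The medians were 0.17 and 0.19 for the family in 7 d IR and 2 d IR, and those of the ligands and partners were close to 0 and 0.10. Lgals3bp passed also without each single array. Of all probe sets 6.22% rose in 7 d IR and 1.88% in 2 d IR, and nothing is read about the list from 1 call among 7.

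Of 6 partners and sheddases of Gpnmb 4 were tested, and 2 rose in 7 d IR, Cd44 as above and Adam10, the protease that sheds Gpnmb, by 0.68 ± 0.16 (limma adjusted p = 0.0170). A second Adam10 probe set changed by 0.52 (limma adjusted p = 0.135), and the call of the first was lost without 7 d IR replicate 47. At 2 d, 0 passed (3 at an unadjusted p under 0.05), and Sdc4, a heparan sulphate proteoglycan that binds Gpnmb, changed by 0.85 ± 0.29 (adjusted p = 0.112). The medians were 0.45 in 7 d IR and 0.53 in 2 d IR, and 6.22% and 1.88% of all probe sets rose. Of 15 transcription factor genes of the MiT/TFE, AP-1 and RUNX families with Ets1 and Spi1, 7 were tested, 0 rose and 1 fell in 7 d IR: Mitf, by 0.53 on the log2 scale (-0.53 ± 0.12, limma adjusted p = 0.0166), a call lost without 7 d IR replicate 47 or 7 d sham replicate 82. Of all probe sets 5.85% fell in 7 d IR, and nothing is read about the list from 1 call among 7. In 2 d IR 0 passed (2 higher and 1 lower at an unadjusted p under 0.05), and Mitf changed by -0.36 ± 0.12 (limma adjusted p = 0.112). The medians were 0.03 in 7 d IR and -0.05 in 2 d IR.

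Genes of lipid-laden macrophages, a state in which Spp1, Gpnmb and Lgals3 are commonly described, were divided. Of 16 such genes 11 were tested, 3 rose and 2 fell in 7 d IR, and 3 rose and 0 fell in 2 d IR (1 lower at an unadjusted p under 0.05). Of all probe sets 6.22% rose and 5.85% fell in 7 d IR, and 1.88% rose and 0.589% fell in 2 d IR. Apoe, which carries lipid out of macrophages, rose by 1.59 ± 0.20 in 7 d IR (limma adjusted p = 0.00244) and by 0.96 ± 0.20 in 2 d IR (adjusted p = 0.0285). Tyrobp, the adaptor of the receptor Trem2, rose by 0.95 ± 0.20 in 7 d IR (limma adjusted p = 0.0122) and by 1.28 ± 0.20 in 2 d IR (adjusted p = 0.0132). Abcg1, a cholesterol exporter, rose by 0.69 ± 0.17 in 7 d IR (limma adjusted p = 0.0179), though its other probe sets gave 0.35 and 0.46 without a call. Fabp5, a fatty acid carrier, rose by 1.11 ± 0.17 in 2 d IR (limma adjusted p = 0.0132). Lpl, lipoprotein lipase, which cardiomyocytes also make, fell in 7 d IR (-0.60 ± 0.11, limma adjusted p = 0.00805). The lipid droplet protein Plin2 fell as well in 7 d IR (-0.60 ± 0.13, limma adjusted p = 0.0133), but its second probe set changed by 0.38 in 7 d IR (limma adjusted p = 0.272) and rose by 1.24 in 2 d IR (adjusted p = 0.0166). The medians were 0.28 in 7 d IR and 0.22 in 2 d IR. Without 7 d sham replicate 82, 1 gene rose and 1 fell in 7 d IR, 1 fell without 7 d IR replicate 44, and 0 rose in 2 d IR without 2 d IR replicate 69 or 2 d sham replicate 71 or 72.

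Of 27 lysosomal genes 23 were tested, and 12 rose in 7 d IR and 6 in 2 d IR, with medians of 0.51 and 0.32. The shares of all probe sets that rose were 6.22% and 1.88%. In neither comparison did a member pass as lower, and the change was negative for 1 member in 7 d IR and for 2 in 2 d IR. The cathepsins, proteases of the lysosome, led: Ctsk rose by 1.42 ± 0.25 (limma adjusted p = 0.00726), Ctss by 1.34 ± 0.29 (adjusted p = 0.0128) and Ctsz by 1.14 ± 0.26 (adjusted p = 0.0152) in 7 d IR. At 2 d Ctsz rose by 1.56 ± 0.26 (limma adjusted p = 0.0147), Ctss by 1.28 ± 0.29 (adjusted p = 0.0383), and the lysosomal membrane protein Laptm5 by 0.93 ± 0.19 (adjusted p = 0.0285). Without 2 d IR replicate 69 and 7 d sham replicate 82 together, 10 lysosomal genes passed in 7 d IR and 1 in 2 d IR. The count in 7 d IR was 2 without 7 d sham replicate 82 alone, 4 without 7 d IR replicate 44 and 6 without 7 d IR replicate 47. The count in 2 d IR was 0 without 2 d IR replicate 69 or 2 d sham replicate 71 or 72, and 3 without 2 d IR replicate 76.

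Markers of cell types were read in the same comparisons, and they differed from type to type. For every cell type the counts stand against the shares of all probe sets. These were 6.22% higher and 5.85% lower in 7 d IR, and 1.88% higher and 0.589% lower in 2 d IR. Of the 17 macrophage markers tested, 10 rose in 7 d IR and 7 in 2 d IR, 0 fell, and the medians were 0.87 and 0.84. Cd53, a leukocyte tetraspanin, rose by 1.06 ± 0.21 in 7 d IR (limma adjusted p = 0.00946) and by 1.75 ± 0.21 in 2 d IR (adjusted p = 0.00316). Clec4a3, a myeloid lectin receptor, rose by 1.58 ± 0.31 in 7 d IR (limma adjusted p = 0.00946) and by 1.39 ± 0.31 in 2 d IR (adjusted p = 0.0366). Cd14, the endotoxin co-receptor of monocytes, rose by 1.14 ± 0.26 in 7 d IR (limma adjusted p = 0.0136) and by 1.31 ± 0.26 in 2 d IR (adjusted p = 0.0235). The summed signal of the 17 markers was 92701 to 116154 in 7 d IR arrays, against 40612 to 68949 in 7 d sham arrays, and 77195 to 106739 in 2 d IR arrays, against 38088 to 55999 in 2 d sham arrays, with none listed at 0. With 7 d sham replicate 82 left out, the count in 7 d IR was 0, and it was 5 without 7 d IR replicate 44 or 47. The count in 2 d IR was 1 without 2 d IR replicate 69 or 2 d sham replicate 71 or 72, and 4 without 2 d IR replicate 76.

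Of 10 fibroblast markers all were tested, 7 rose in 7 d IR and 0 in 2 d IR (5 higher at an unadjusted p under 0.05), with medians of 1.21 and 0.40. Fap, the fibroblast activation protein, rose by 1.39 ± 0.19 in 7 d IR (limma adjusted p = 0.00286), and the matrix protein Postn by 1.38 ± 0.32 (adjusted p = 0.0161). The summed signal of the list was 205742 to 267987 in 7 d IR arrays, against 92706 to 164770 in 7 d sham arrays, and 90766 to 108591 in 2 d IR arrays, against 75764 to 85864 in 2 d sham arrays. Without 7 d IR replicate 44 or 7 d sham replicate 82, 2 fibroblast markers passed in 7 d IR, and 3 did without 7 d IR replicate 47.

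Of the 11 cardiomyocyte markers 6 fell in 7 d IR and 1 in 2 d IR, with medians of -0.42 and -0.41. Myh6 fell in 7 d IR (-0.79 ± 0.17, limma adjusted p = 0.0131) and so did Actn2, the Z-disc actinin (-0.75 ± 0.12, adjusted p = 0.00558), while Tnni3, cardiac troponin I, fell in 2 d IR (-0.47 ± 0.11, adjusted p = 0.0450). The summed signal of the cardiomyocyte list was 360894 to 395138 in 7 d IR arrays, against 475635 to 558977 in 7 d sham arrays, and 371254 to 495633 in 2 d IR arrays, against 508441 to 575889 in 2 d sham arrays. Without 7 d sham replicate 82, 1 passed in 7 d IR, and 3 without 7 d IR replicate 44 or 47. The count in 2 d IR ran from 0 (without 2 d IR replicate 69 or 76, any 2 d sham array, 7 d IR replicate 47 or 48, or 7 d sham replicate 81) to 4 (without 2 d IR replicate 73).

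For the remaining cell types 3 to 8 markers each were tested. With so few, nothing is read about a cell type from 1 call, where 6.22% of all probe sets rose in 7 d IR. In 7 d IR 1 of 3 neutrophil, 1 of 3 lymphocyte, 2 of 8 smooth muscle and pericyte (below, smooth muscle), 1 of 6 endothelial and 0 of 3 red blood cell markers rose: S100a8 (1.51 ± 0.43), Cd4 (0.75 ± 0.19), Acta2 (0.91 ± 0.24), Rgs5 (0.76 ± 0.16) and Esam (0.32 ± 0.10), with limma adjusted p of 0.0117 to 0.0440. All 5 calls were lost without 7 d sham replicate 82, those of S100a8, Cd4, Acta2 and Esam also without 7 d IR replicate 47, those of S100a8, Acta2 and Esam without 7 d IR replicate 44, that of S100a8 without 7 d sham replicate 80, that of Acta2 without 7 d sham replicate 81, and that of Esam without most single arrays. Cd4 was the only gene of the lymphocyte list to pass, so no change in lymphocytes is read from it. Cd3g changed by 0.20 ± 0.18 in 7 d IR (limma adjusted p = 0.508) and Nkg7 by 0.08 ± 0.23 (adjusted p = 0.861). In 2 d IR 0 of each rose, with 2 neutrophil and 1 smooth muscle markers higher at an unadjusted p under 0.05. The median changes in 7 d IR and 2 d IR were 0.72 and 1.18 for the neutrophil markers, all 3 positive on both days, 0.20 and 0.03 for the lymphocyte, 0.49 and 0.20 for the smooth muscle, 0.06 and 0.06 for the endothelial and 0.07 and 0.08 for the red blood cell markers. The neutrophil gene S100a9 had a log2 change of 1.31 ± 0.34 in 2 d IR (limma adjusted p = 0.056). The summed signal of the neutrophil markers was 16561 to 50356 in 7 d IR arrays, against 9855 to 45481 in 7 d sham arrays, and 11930 to 20589 in 2 d IR arrays, against 8110 to 11626 in 2 d sham arrays. Of the 3 genes in this sum, Lcn2 had the highest mean in every group (15294 in 7 d IR and 14295 in 7 d sham). Lcn2 changed by 0.25 ± 0.57 in 7 d IR (limma adjusted p = 0.816) and by 0.45 ± 0.57 in 2 d IR (adjusted p = 0.71). The part of these cell types in the signals of Spp1, Gpnmb and Lgals3 was not tested. Whether the effect of IR differed between 7 d and 2 d was tested as an interaction of surgery and day in limma. Of the 123 distinct genes on the lists 0 passed after adjustment. An unadjusted p under 0.05 was found for 16 of the 123, and for 7.14% of all probe sets. In all 1 probe set, or 0.00950%, passed, that of the ribosomal protein gene Rpl37a (1.55 ± 0.21, limma adjusted p = 0.0287).

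**Figure D5:**
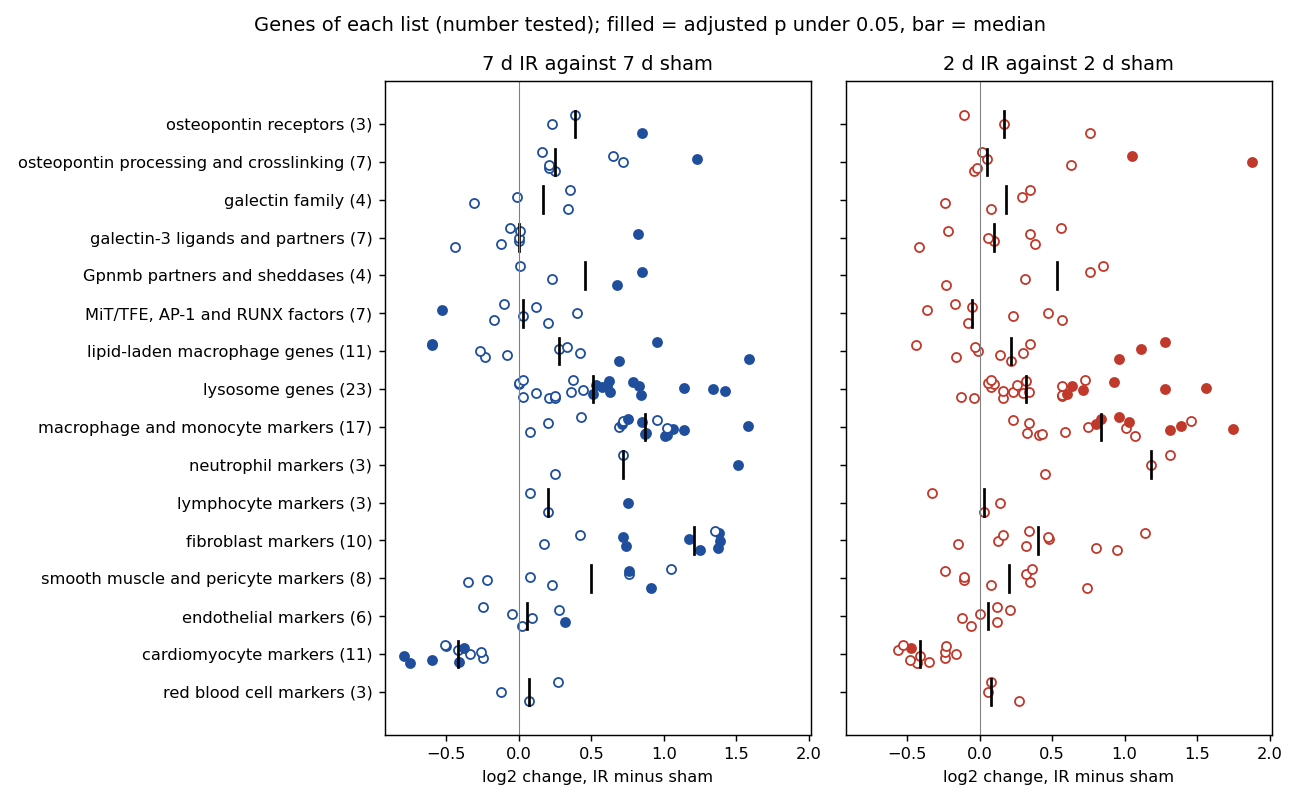
Log2 change, IR minus sham, at 7 d (left) and 2 d (right) for each tested gene of each list (x axis, log2 units; number tested in brackets), with filled points for an adjusted p under 0.05 and a bar at the list's median. Macrophage markers lie to the right in both panels (medians 0.87 and 0.84) and fibroblast markers farther right at 7 d (1.21) than at 2 d (0.40).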

How the data were processed

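Each deposited value is the linear intensity of a probe set, which the authors computed with MAS5 according to the submitters' processing notes; no version is named there. The deposited arrays had a mean of 1500.4 to 1500.5 after leaving out 2% of probe sets at each end, and medians of 637.3 to 719.0, so they share a common scaling. Values differed between every pair of arrays. With 3 arrays a group, the number of arrays limits the precision, and p-values measure the spread between rats as the labels number them.

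Levels were taken as log2(signal + 195.4), the constant being the median over arrays of the 20th percentile, which understates changes of dim genes. After removal of 57 controls from 15923 probe sets, 10527 were tested, namely those over the 40th percentile of the array on 3 or more arrays. Gene symbols came from the platform annotation: 12789 probe sets had 1 symbol, 312 had several and 2822 are unnamed here, and 12754 of the 12789 were found in the RefSeq gene table of GRCr8. Group means of all 12 arrays were fitted with limma 3.58.1 (R 4.3.3, intensity trend), two-sided, with p-values adjusted after Benjamini and Hochberg across all 10527 in each comparison and called under 0.05. A gene with several probe sets is represented by the brightest. The fit was tested on simulated data. A test of the 3 genes between the sham groups was planned and is not given, since the levels in all 4 groups chose them.

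The 3 genes, the 17 gene lists and the tests were chosen with earlier results of these data known. Genes named were drawn from the 3, the 5 most correlated with each, and genes picked from each list. Those picked were up to 4 called genes with the largest change per IR comparison and up to 2 uncalled genes with the highest signal. Not all genes so picked are named, and most of the uncalled ones are not. Plin2 lies outside this rule. Second probe sets, and Cd44, Sdc4, Mitf and S100a9 in 2 d IR, were named after their values were seen. So were C1qa, C1qb and C1qc between days of IR and of sham.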

Additional observations from a re-analysis of the deposited data

How the results depend on the processing

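In the 2 d IR comparison 260 probe sets were called, but 77 with no filter on dim probe sets, 68 with no intensity trend, 2 to 521 when single arrays were left out, and 70 without 2 d IR replicate 69 and 7 d sham replicate 82 together; 2 were called without 2 d IR replicate 69, and as many without 2 d sham replicate 71 or 72. In the 7 d IR comparison 1271 were called, 178 (without 7 d sham replicate 82) to 1462 when single arrays were left out, and 550 without both arrays. Between 7 d IR and 2 d IR there were 363, 192 to 440 with single arrays left out and 562 without both. Between the sham groups there were 8, 1 with no filter, 2 with no trend, 1 to 76 with single arrays left out and 83 without both. The interaction had 1, 0 with no filter, with no trend or without both arrays, and 0 to 6 with single arrays left out. Leaving out arrays also lowers the number of samples; the cause was not tested.

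With 7 d sham as the control, the 2 d IR change was 3.83 for Spp1 and 2.78 for Gpnmb, and with 2 d sham as the control, the 7 d IR change was 0.87 for Gpnmb and, reversed, -1.26 for Spp1. With single arrays left out, the 7 d IR change ran from -0.0024 to 1.40 for Spp1, and the change between sham groups from -2.37 to -1.94 for Spp1, -1.09 to -0.42 for Gpnmb and -0.00097 to 0.53 for Lgals3. The correlation of deviations between Spp1 and the macrophage list was -0.01 with median centring and -0.46 without both arrays. Without both arrays it was -0.01 for Spp1 and Lgals3, -0.22 for Gpnmb and the macrophage list, 0.93 for Spp1 and Gpnmb and 0.76 for Lgals3 and the macrophage list. With single arrays left out, r was -0.17 to 0.67 for Spp1 and the list, 0.51 to 0.90 for Gpnmb and Lgals3, 0.26 to 0.87 for Gpnmb and the list, and 0.89 to 0.95 for Lgals3 and the list, which did not pass without 7 d sham replicate 82 (adjusted p = 0.0625). Of 14 calls of named list genes in 2 d IR, 1 (Cd53) held in all 12 fits that left out an array, and of 29 in 7 d IR, 7 did (Mmp2, Lgals3bp, Apoe, Lpl, Ctsk, Fap and Actn2). No paired analysis was possible because the groups share no replicate numbers. Another probe set for the 3 genes could not be tried, as each has 1.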
